A study of Mus musculus with 12 samples.

Results

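Of 29623 CD3-positive cells recovered from recipients of transferred Th1 cells, 869 (2.93%) carried transcripts of both Eomes and Gzmk. A cell was CD3-positive when it had 3 or more unique molecular identifiers (UMIs, the counted transcript molecules) of Cd3d, Cd3e and Cd3g together. It was an Eomes Gzmk cell when it also had at least 1 UMI of Eomes and at least 1 UMI of Gzmk. The remaining 28754 CD3-positive cells of the same libraries served as the comparison, and 90.4% of the 32763 cells of the series met the CD3 rule. The members were thus chosen by the measured counts of these 5 genes, whose levels are given below as a description without a test.

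The series profiled CD4 T cells of mouse spleen, small intestinal lamina propria, colon lamina propria and colon epithelium with the droplet-based 10x 3′ method. The transferred Th1 cells were either KO (Il23r eGFP/eGFP), with eGFP in both alleles of the interleukin-23 receptor gene, or control (Il23r wt/eGFP), with eGFP in 1 allele, so that both groups carried the reporter. There were 6 KO and 6 control libraries: 2 per genotype in colon lamina propria and in spleen, and 1 per genotype in small intestine and in colon epithelium. No treatment or age is stated in the labels. The labels do not say whether each library came from a separate animal, or whether tissues share recipients, so p-values measure the spread between libraries. The strain and remaining lymphocytes of the recipients are not stated in the labels.

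Eomesodermin, encoded by Eomes, is a T-box transcription factor related to T-bet, and in CD8 T and natural killer cells it drives genes of cytotoxic granules. Granzyme K, encoded by Gzmk, is a trypsin-like serine protease of those granules. CD4 T cells that express both factors have been described among interleukin-10-producing regulatory type 1 (Tr1) cells and among aged or chronically stimulated CD4 cells, often with the costimulatory receptor CD27.

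The Eomes Gzmk cells held 3939813 UMIs and the other CD3-positive cells 100638402 UMIs, with medians of 3310 and 2859 UMIs and of 1345 and 1233 detected genes per cell. The median depth of the Eomes Gzmk cells was below that of the others in 7 of 12 libraries. A gate on detected UMIs depends on depth, so results were repeated with cells thinned to 1500 UMIs and with a comparison group matched for UMIs. A Cd4 UMI was found in 51.0% of Eomes Gzmk cells and 53.1% of the others, and a Cd8a UMI in 0.345% and 0.849%. The level of Cd4, the MHC class II coreceptor, was 163 to 315 CPM in Eomes Gzmk cells and 199 to 387 CPM in the others, lower in 12 of 12 libraries (-0.34 ± 0.09, adjusted p = 0.00124 by edgeR's quasi-likelihood test). This call ended after thinning, against cells matched by UMIs and without batch 1. It also ended in cells with Cd4 and no Cd8, but that setting selects on Cd4 itself and so cannot check the call. The natural killer receptor gene Ncr1 was detected in 2 of the 869 cells. UMIs of other lineages reached 3 or more in 14 Eomes Gzmk cells (1.61%) and in 1.21% of the others. Among 233 cells with no CD3 UMI and with markers of B cells, myeloid cells, erythrocytes or epithelium, where only free RNA should give a T cell transcript, Eomes was seen in 0.429%, Gzmk in 2.15% and both in 0 cells, which allows a share of up to 1.29%. A barcode shared with another library marked 33 Eomes Gzmk cells, and in 0 of these cases were both cells Eomes Gzmk cells. Batch 1 of the deposited cell table held the replicate 1 libraries and batch 2 all others, so small intestine and colon epithelium were sampled in batch 2 only. Il23r, the targeted gene, had 3 UMIs in Eomes Gzmk cells of KO libraries and 0 in those of control libraries, and among other CD3-positive cells it measured 0.317 to 4.45 CPM (UMIs of a gene scaled to a library total of 1e6) in KO libraries and 0.607 to 3.13 CPM in control libraries. Whether the counted 3′ end lies outside the altered part of the gene is not stated in the labels, so these values do not check the genotype labels.

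Eomes marked a small class that largely overlapped with Gzmk, whereas Gzmk was far more widespread. Of 1120 CD3-positive cells with Eomes, 77.6% also had Gzmk, against 14.0% of the cells without Eomes. Of 4861 cells with Gzmk, 17.9% had Eomes. The median Eomes Gzmk cell had 1 UMI of Eomes (highest 8), 3 of Gzmk (highest 33) and 12 of the CD3 genes. Many lie at the edge of the rule: 506 (58.2%) had exactly 1 Eomes UMI, 188 (21.6%) exactly 1 Gzmk UMI and 123 exactly 1 of each. At the CD3 limit, 30 cells had exactly 3 CD3 UMIs, and 15 further cells with Eomes and Gzmk fell just outside with 2. Cells with Eomes or Gzmk undetected by shallow sampling are therefore part of the comparison group, which held 251 cells with Eomes alone and 3992 with Gzmk alone.

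As a description of the gate, Eomes ran from 223 to 830 CPM over the 12 libraries in Eomes Gzmk cells (median 427) and from 0.26 to 16.7 CPM in the others (median 2.46). Gzmk ran from 592 to 1361 CPM (median 997), against 22.0 to 120 CPM (median 76.5).

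Gzmk lies on mouse chromosome 13 beside Esm1, which encodes a secreted proteoglycan first known from endothelium and is one of the genes that label the population. In the GENCODE M21 annotation of mm10, Gzmk occupies chr13:113171608-113225908 on the minus strand and Esm1 chr13:113209659-113218098 on the plus strand. Of 3 annotated Gzmk transcripts, 1 spans Esm1 from an upstream start, and 0 pairs of exons overlap between the genes. The strand setting of the counting is not stated in the labels or files, so reads of overlapping genes cannot be told apart from it. Gzma, the neighbour on the other side at chr13:113093825-113100981, averaged 827 ± 787 CPM in Eomes Gzmk cells and 1732 ± 1406 CPM in the others (SD, n = 12 libraries) and was higher in 3 of 12 libraries. Gzmk and Esm1 were higher in 12 of 12, but Gzmk is a gate gene and Esm1 a label gene. Their choice favours that outcome, so the contrast with Gzma says nothing of a shared pattern at the locus. The RefSeq promoters of Gzmk and Esm1 (GRCm38.p6, 250 bases before to 50 after the start) are shown because this gate gene and this label gene lie close together. The Esm1 start lies 28694 bases upstream of the RefSeq start of Gzmk. Capitals mark the T-box core GGTGTGA, searched on both strands. It was found in 1307 of 32851 promoters of this length (3.979%), in the Gzmk promoter 1 time, and in the Esm1 promoter 0 times, which says nothing of whether a T-box factor acts there.
Gzmk promoter, chr13:113180916-113181215, minus strand: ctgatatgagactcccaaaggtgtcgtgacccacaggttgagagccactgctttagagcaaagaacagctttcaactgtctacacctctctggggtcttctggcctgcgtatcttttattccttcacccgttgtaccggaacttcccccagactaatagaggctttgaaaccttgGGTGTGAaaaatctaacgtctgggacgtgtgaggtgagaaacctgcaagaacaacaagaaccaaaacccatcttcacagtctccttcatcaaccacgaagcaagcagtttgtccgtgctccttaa
Esm1 promoter, chr13:113209409-113209708, plus strand: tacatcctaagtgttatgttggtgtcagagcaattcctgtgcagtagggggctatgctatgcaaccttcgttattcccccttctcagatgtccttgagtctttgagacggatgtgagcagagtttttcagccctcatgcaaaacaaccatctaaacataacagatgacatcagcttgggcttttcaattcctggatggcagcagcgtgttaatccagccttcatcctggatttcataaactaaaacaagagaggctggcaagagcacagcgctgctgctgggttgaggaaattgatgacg

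The 3 other genes that label the population, Esm1, Il10 and Cd27, were more abundant in Eomes Gzmk cells, and are given without a test because they helped to name it. Esm1 was detected in 34.9% of Eomes Gzmk cells, 8.14% of the others and 0.429% of the cells without CD3; after thinning the shares were 22.6% and 4.64%. Its level ran from 23.3 to 372 CPM (median 140) in Eomes Gzmk cells and from 12.3 to 70.6 CPM (median 34.6) in the others, higher in 12 of 12 libraries. The 2 colon epithelium libraries were the lowest or among the lowest. Cd27 was detected in 62.7% and 17.7%, against 5.15% of the cells without CD3, and measured 107 to 399 CPM (median 313) in Eomes Gzmk cells and 41.8 to 130 CPM (median 60.7) in the others, again higher in 12 of 12. Il10, the anti-inflammatory cytokine gene, rested on few molecules. It was detected in 48 Eomes Gzmk cells (5.52%), in 0.574% of the others and in 0.429% of the cells without CD3, and after thinning in 2.17% and 0.402%. Its 82 UMIs in Eomes Gzmk cells gave 0 to 98.8 CPM (median 13.4), against 0.423 to 10.0 CPM (median 1.95) in the others, with the higher level in Eomes Gzmk cells in 9 of 12 libraries. Of these UMIs, 78 came from KO and only 4 from control libraries, against 243 and 105 UMIs in the other CD3-positive cells. The Il10 label thus rests almost wholly on KO libraries. In the 10 libraries of spleen and lamina propria, cells with only one of the gate genes lay between: Esm1 averaged 205 CPM in cells with both genes, 118 with Eomes alone, 95.1 with Gzmk alone and 30.1 with neither. Cd27 averaged 309, 223, 108 and 74.1 CPM in the same order. Il10 did not follow that order, with 21.5, 23.7, 8.37 and 3.54 CPM.

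The share of Eomes Gzmk cells varied widely between libraries. In colon lamina propria it was 7.92% and 1.503% in the KO libraries (replicates 1 and 2), against 3.18% and 1.32% in the control libraries. In spleen it was 3.40% and 6.27% in KO libraries, against 6.16% and 2.29% in control libraries. In small intestine it was 5.29% in the KO library and 1.59% in the control library, and in colon epithelium 0.728% and 0.274%. The KO library was higher in 5 of 6 pairs of one tissue and number, the exception being spleen replicate 1. With cells thinned to 1500 UMIs the ratio of KO to control was 0.89 in colon lamina propria replicate 2 (1.13 unthinned), 1.41 in spleen replicate 2 (2.73 unthinned) and 4.004 in colon lamina propria replicate 1 (2.49 unthinned), so that KO was higher in 4 of 6 pairs. Unthinned, the KO and control ranges overlapped in both tissues with 2 libraries per genotype. Averaged within tissues, the share was 1.83-fold higher in KO (log2 difference 0.87), which an exact two-sided permutation test within tissues did not separate from zero (p = 0.139, smallest possible 0.0139). With replicate numbers as pairs the exact p was 0.0938 (smallest possible 0.0312). Leaving out 1 library at a time gave log2 differences of 0.56 to 1.21, with exact permutation p of 0.0417 to 0.333. Only the fit without the KO colon lamina propria replicate 2 (1.21) fell under 0.05. No difference in share was thus called over the 12 libraries. Between tissues, the share in colon lamina propria was 0.639 times that in spleen (exact permutation p = 0.444, smallest possible 0.0556).

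**Figure D1:**
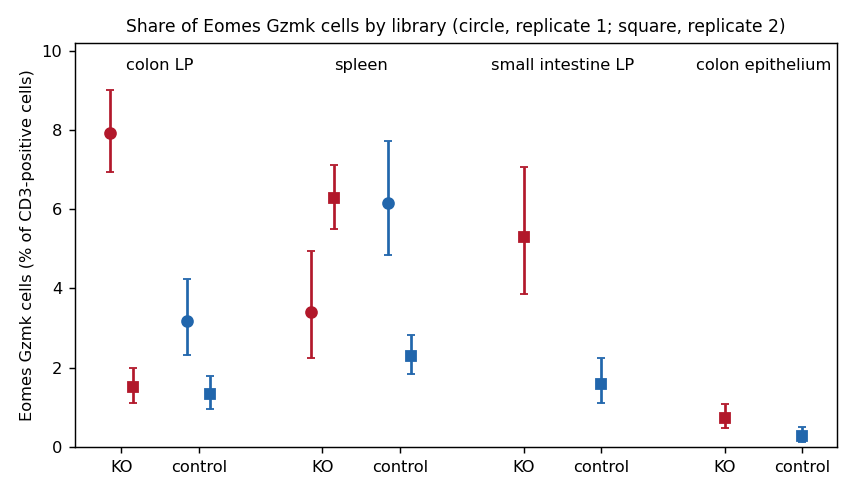
Share of Eomes Gzmk cells among CD3-positive cells (y axis, percent) in each of the 12 libraries, by tissue and genotype of the transferred cells; bars are exact binomial 95% intervals, which cover counting error only, circles are replicate 1 and squares replicate 2. These are shares before thinning: the KO library is higher in 5 of 6 pairs, and the highest value is the KO colon lamina propria replicate 1 at 7.92%, while after thinning the highest is the KO small intestine library at 4.39%.

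Compared with the other CD3-positive cells of the same libraries, Eomes Gzmk cells had more transcript of the chemokine Ccl5, of receptors and regulators that restrain chronically stimulated T cells (Lag3, Pdcd1, Tox) and of several cytotoxic granule genes, and less of Th1 and Th17 receptors, tissue-residency genes and TNF-family ligands. With sums of UMIs per library and edgeR's quasi-likelihood test (Benjamini-Hochberg adjusted p under 0.05), 507 of 9766 genes were higher (5.19%) and 550 lower (5.63%), and 39 and 134 of these had the same direction in all 12 libraries. Such counts, here and below, are among called genes only, and the share over all genes tested is not given. A small p already favours libraries that lie apart, so the counts give no separate support. The median log2 fold change of all genes tested was 0.03. The balance of calls depends on scaling: with the usual TMM factors over all genes the median moved by -0.11 and 320 genes were higher and 971 lower, so that 24.8% of calls were upward in place of 48.0%. Below, a count of a list is set against 5.19% higher and 5.63% lower among all genes.

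The secreted chemokine Ccl5, which attracts T cells and monocytes, averaged more CPM in Eomes Gzmk cells than any other gene named here. It measured 13595 to 44358 CPM (median 22960) in Eomes Gzmk cells and 3742 to 17216 CPM (median 6510) in the others, and it was higher in each of the 12 libraries (log2 fold change 1.70 ± 0.12 SE, adjusted p = 5.05e-07). Of 8 secreted chemokines tested, Ccl5 was the single one higher, and Ccl1, Ccl20 and Cxcl10 were lower, Cxcl10 not so with the replicate block (adjusted p = 0.117). Ccl1 (log2 fold change -4.94 ± 0.33, adjusted p = 5.21e-38) had 5 UMIs in all Eomes Gzmk cells, against a median of 33.0 CPM in the others. Ccl3 and Ccl4 were not called (adjusted p = 0.467 and 0.13).

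Among 15 granzyme and granule genes, 5 were higher and 2 lower. Those higher included Prf1, which encodes perforin (2.69 ± 0.35, adjusted p = 1.18e-11, from 41 UMIs), Cst7, an inhibitor of granule cathepsins (1.11 ± 0.11, adjusted p = 3.8e-14), and Nkg7, a granule membrane protein (0.70 ± 0.05, adjusted p = 8.21e-32). Nkg7 ran from 1842 to 4688 CPM in Eomes Gzmk cells and from 1217 to 3356 CPM in the others, higher in 12 of 12 libraries. Ctsw, a cathepsin of cytotoxic cells, was lower in 12 of 12 (-0.51 ± 0.08, adjusted p = 2.77e-09). Gzma (-0.97) and Gzmb (0.33), the granzymes most abundant in effector cells, were not called (adjusted p = 0.171 and 0.569). The granule genes were thus split by direction.

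Of 15 co-inhibitory receptors and exhaustion regulators, 6 were higher and 1, the ecto-nucleotidase Nt5e, was lower. Tox, a nuclear factor of chronically stimulated T cells, measured 42.8 to 163 CPM (median 90.0) in Eomes Gzmk cells and 8.47 to 37.8 CPM (median 15.3) in the others, so that the ranges did not overlap (2.32 ± 0.14, adjusted p = 3.42e-36). It was detected in 29.6% and 5.48% of cells, against 9.87% of the deeper cells without CD3. Lag3, an inhibitory receptor for MHC class II, was higher in 12 of 12 libraries (medians 138 and 32.7 CPM; 1.81 ± 0.26, adjusted p = 0.00051). Pdcd1, which encodes PD-1, was higher in 10 of 12 (0.85 ± 0.13, adjusted p = 6.34e-08). The receptors Ctla4 (-0.57) and Tigit (0.49) were not called (adjusted p = 0.101 and 0.246).

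Of 17 IL-10 and Tr1-type genes tested, 7 were higher and 4 lower, with a median of 0.26. Il10ra, the ligand-binding chain of the interleukin-10 receptor, measured 7.58 to 87.0 CPM (median 48.8), against 4.44 to 17.8 CPM (median 10.9), higher in 12 of 12 libraries (2.03 ± 0.18, adjusted p = 1.5e-22). The Ikaros-family factor Ikzf3 (1.08 ± 0.16, adjusted p = 1.57e-05) and the Il10 activator Maf (0.41 ± 0.09, adjusted p = 0.000269) were each higher in 11 of 12. The call of Maf ended with TMM factors over all genes. Prdm1, which encodes Blimp-1, passed narrowly (0.57, adjusted p = 0.0393) and lost its call in 15 of 26 alternatives, the replicate block among them (adjusted p = 0.162). Lower were the aryl hydrocarbon receptor Ahr (-1.81 ± 0.20, adjusted p = 3.27e-15), Icos (-0.73 ± 0.09, adjusted p = 6.35e-14), the CD155 receptor Cd226 and the stress-response repressor Bhlhe40.

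Other genes higher in each of the 12 libraries had diverse roles. Rgs16, which ends G protein signals, measured 5.72 to 208 CPM (median 78.0), against 0.415 to 48.4 CPM (median 7.25), and had the largest such rise among genes averaging 20 CPM or more (3.21 ± 0.33, adjusted p = 1.19e-05). Sh2d1a, which encodes the SAP adaptor of SLAM receptors, measured 298 to 691 CPM and 106 to 320 CPM (1.45 ± 0.08, adjusted p = 6.78e-56). The follicle-homing receptor Cxcr5 measured 11.7 to 107 CPM (median 41.7), against 0 to 17.9 CPM (median 3.78), with a fold change of 2.25 ± 0.57 and an adjusted p of 0.0248. Its call ended without the spleen control replicate 2, without the KO colon lamina propria replicate 1 or without batch 1. The lipid receptor Gpr18, the replication protein gene Rpa2, the decapping factor gene Dcp1b, the tetraspanin Tspan3 and the exocytosis gene Baiap3 completed the genes named by rule, at 1.16 to 2.18 on the log2 scale. Klrg1, an inhibitory receptor of late effector cells, was higher in 11 of 12 libraries (2.23 ± 0.12, adjusted p = 6.03e-46), and the exception was the control colon epithelium library, where its 10 cells had 0 UMIs.

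**Figure D2:**
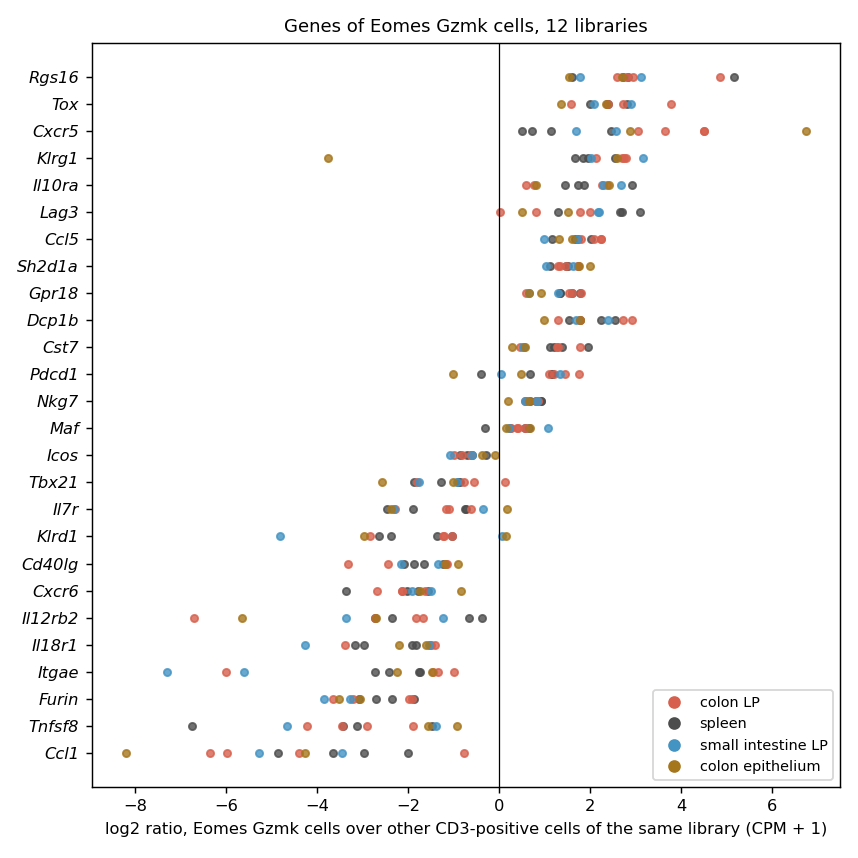
Log2 ratio of CPM (with 1 CPM added) between Eomes Gzmk cells and the other CD3-positive cells of the same library (x axis) for 26 genes (y axis); each point is 1 of 12 libraries, coloured by tissue. Points of Rgs16, Tox, Cxcr5 and Ccl5 lie right of zero in every library, and those of Cxcr6, Il18r1, Furin and Ccl1 left of zero in every library.

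Receptors of the Th1 and Th17 programmes were lower. Of 12 Th1 genes, 2 were higher and 4 lower. Il18r1 (-2.14 ± 0.13, adjusted p = 4.53e-32) and Il12rb2 (-2.11 ± 0.20, adjusted p = 6.92e-21), chains of the receptors for interleukins 18 and 12, were lower in 12 of 12 libraries. The Th1 regulator Tbx21, which encodes T-bet, ran from 7.58 to 64.8 CPM (median 33.0), against 29.3 to 81.1 CPM (median 62.3), lower in 11 of 12 (-0.90 ± 0.15, adjusted p = 1.39e-07). Ifng was not called (-0.56, adjusted p = 0.215) and was detected in 26.1% of Eomes Gzmk cells and 26.0% of the others. Of 11 Th17 and type 3 genes, 0 were higher and 6 lower, among them Ccr6, Rora, Tmem176a and Tmem176b. Il17a was also called lower, but its 22 UMIs in Eomes Gzmk cells all came from 1 library, the KO colon lamina propria replicate 1.

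The integrin and residency list had 2 genes higher and 8 lower of 14. Cxcr6, a receptor of tissue-resident T cells, measured 56.1 to 889 CPM (median 185) in Eomes Gzmk cells and 449 to 1596 CPM (median 718) in the others, lower in 12 of 12 libraries (-2.01 ± 0.18, adjusted p = 7.52e-06). It was detected in 24.9% of Eomes Gzmk cells, against 72.0% of the others and 26.6% of the cells without CD3. Itgae, the CD103 chain that binds E-cadherin (-2.44 ± 0.27, adjusted p = 2.72e-15, 17 UMIs), and the gut-homing chain Itgb7 (-0.83 ± 0.08, adjusted p = 2.25e-14) were lower, and its partner Itga4 was higher (0.72 ± 0.11, adjusted p = 1.18e-07). Of 10 NK receptor genes, Klrg1 was higher and 6 were lower, including Klrd1 (-1.61 ± 0.21, adjusted p = 3.43e-05) and Klrk1 (-2.12 ± 0.19, adjusted p = 6e-08).

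Costimulatory genes were mostly lower, with 1 higher and 7 lower of 12. Among these were the TNF-family ligands Tnfsf8 (CD30 ligand, -2.65 ± 0.27, adjusted p = 2.05e-05), Tnfsf11 (RANK ligand, -1.93 ± 0.16, adjusted p = 1.97e-26) and Cd40lg (-1.65 ± 0.14, adjusted p = 2.16e-25). Of 14 naive, memory and egress genes, 2 were higher and 6 lower. Il7r, the interleukin-7 receptor chain of long-lived T cells, measured 31.9 to 285 CPM (median 127), against 182 to 463 CPM (median 243), and was lower in 11 of 12 libraries (-1.21 ± 0.22, adjusted p = 0.00304). The convertase gene Furin and the interferon-induced Ifitm1, Ifitm2 and Ifitm3 were lower in each of the 12 libraries, with log2 fold changes of -2.88 to -2.64. Pooling tissues into 1 sum per genotype and replicate ended 21 calls, among them those of Rgs16, Cxcr6, Il7r, Tnfsf8, Tnfsf11, Furin, Ifitm1, Ifitm2, Tmem176a, Tmem176b, Bhlhe40, Maf, Il17a, Cxcl10, Prdm1 and Mcm3, and thinning ended that of Baiap3. Of 17 interferon-stimulated genes, a list without the Ifitm genes, 3 were higher and 4 lower.

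The summed epithelial list measured 0 to 105 CPM (median 2.34) in Eomes Gzmk cells and 1.96 to 1430 CPM (median 13.9) in the others, and 7 of 8 tested members were called lower. The erythroid list measured 0 to 120 CPM (median 5.48), against 0 to 1559 CPM (median 1.70), with the highest value in the control colon lamina propria replicate 1, and 3 of 4 tested members were called lower. For natural killer and innate lymphoid markers the range was 727 to 1956 CPM, against 813 to 1836 CPM. The macrophage and dendritic list was higher in 8 of 12 libraries (0 to 306 CPM, against 9.38 to 164 CPM), with Adgre1 and Flt3 at 0 UMIs and 1 of 6 members, the lysosomal gene Cd68, called higher (2.43 ± 0.28, adjusted p = 3.16e-14). Whether cells or RNA of another lineage contributed to Cd68 was not tested. Of 21 proliferation genes, 3 (Mcm3, Mcm5, Mcm6) were higher and 0 lower. After thinning to equal depth Mcm3 and Mcm5 turned to -0.39 and -0.92 with no call, and with the replicate block their adjusted p was 0.366 and 0.176, while Mcm6, a subunit of the replicative helicase, kept its call (0.87 ± 0.10, adjusted p = 9.74e-15 unthinned).

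**Figure D3:**
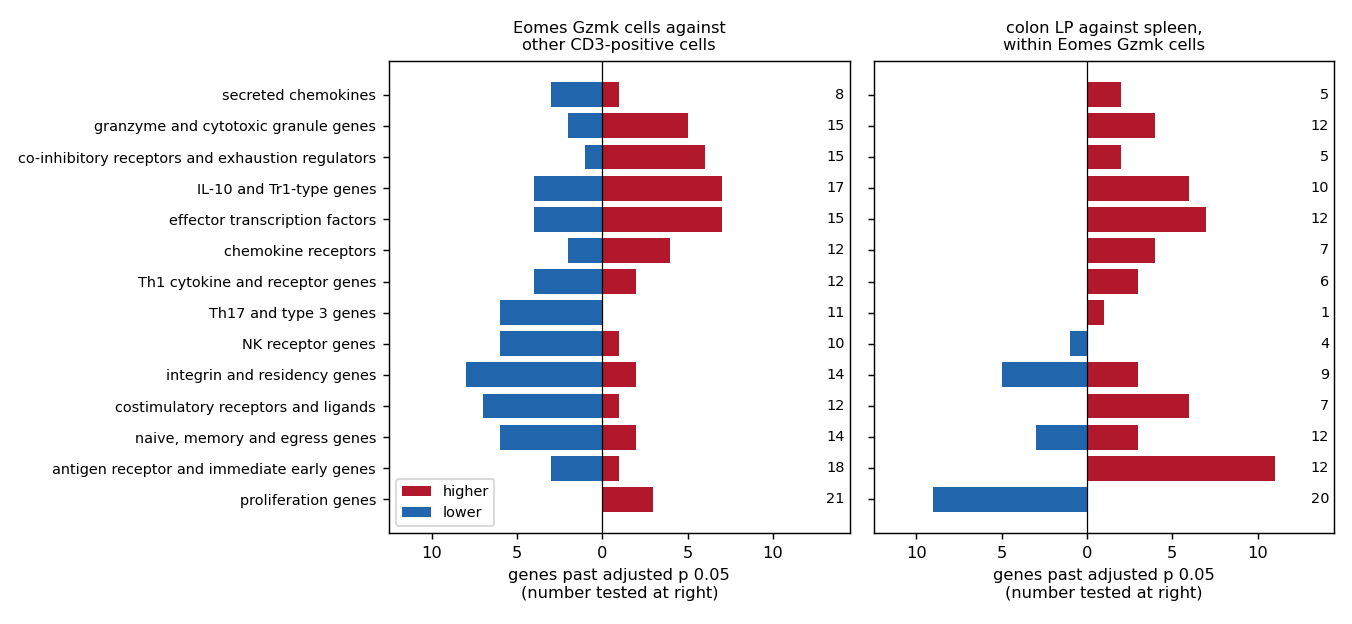
Numbers of genes past an adjusted p of 0.05 (x axis; red higher, blue lower) in 14 gene lists (y axis), for Eomes Gzmk cells against other CD3-positive cells and for colon lamina propria against spleen within Eomes Gzmk cells; the number tested stands at the right. The NK receptor, integrin and costimulatory lists lean to lower in the left panel, and 11 of 12 immediate early genes are higher in the right panel.

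Within the Eomes Gzmk class, cells of colon lamina propria differed strongly from those of spleen: they had more transcript of immediate early and antigen-receptor response genes, of the inhibitory receptor gene Ctla4, of costimulatory receptors, of Gzmb and of Esm1, and less of cell-cycle genes and Id3. Of 3452 genes tested over the 8 libraries with edgeR's quasi-likelihood test, 453 were higher in colon (13.1%) and 315 lower (9.13%), and 331 and 225 of these had no overlap between the tissues. These last counts are among called genes only and give no separate support. For the genes of this comparison whose UMIs in the other CD3-positive cells are given below, those cells had the same direction. Gut cells were released with a dissociation kit and spleen cells by homogenisation with a plunger, per the labels, so tissue and preparation cannot be told apart. In the same comparison 5 of 11 heat shock and dissociation genes were higher and 0 lower.

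The antigen receptor and immediate early list had 11 of 12 tested genes higher and 0 lower, with a median of 3.42, against -0.08 for all genes. Nr4a1, the orphan nuclear receptor Nur77 that reports antigen receptor signals, measured 221 and 190 CPM in KO and 251 and 167 CPM in control Eomes Gzmk cells of colon. In spleen it measured 4.12 and 15.5 CPM in KO and 7.63 and 0 CPM in control (log2 fold change 4.51 ± 0.36, adjusted p = 4.56e-07). The lowest colon library stood above the highest spleen library by a wide margin. Its relative Nr4a2 (4.91 ± 0.30) and the NF-kappa B inhibitor Tnfaip3, which encodes A20 (4.90 ± 0.29), both had an adjusted p of 2.24e-08. The cyclic AMP modulator Crem (5.28 ± 0.59, adjusted p = 0.000739) and the AP-1 factor Fosl2 (5.69 ± 0.46, adjusted p = 5.19e-07) were higher as well. For Areg, the EGF-family growth factor amphiregulin, 98 UMIs were counted in colon and 1 in spleen. Its level was 61.3 and 175 CPM in KO and 13.0 and 68.2 CPM in control colon libraries. Ramp3, a partner of calcitonin-type receptors, had 464 UMIs in colon and 2 in spleen (its call ended without either KO spleen library or the control spleen replicate 1), and the salt-inducible kinase gene Sik1 had 84 and 1. The other CD3-positive cells had the same direction, with UMIs in colon and spleen of 19624 and 243 for Ramp3 and 1511 and 86 for Sik1. For Areg they were 4066 and 18, and for Nr4a1 7811 and 186, so these differences are not particular to the Eomes Gzmk class.

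Ctla4, the inhibitory receptor that competes with CD28, measured 480 and 486 CPM in KO and 285 and 250 CPM in control colon libraries, against 24.7 and 25.9 CPM in KO and 13.4 and 30.7 CPM in control spleen libraries (4.18 ± 0.25, adjusted p = 2.24e-08). The tissues did not overlap. Among the other CD3-positive cells Ctla4 had 23492 UMIs in colon and 502 in spleen, the same direction. Of 7 costimulatory genes, 6 were higher and 0 lower, including Icos, Tnfrsf4 and Tnfrsf9. Their UMIs in the other CD3-positive cells of colon and spleen were 26585 and 3523 for Icos, 44410 and 3336 for Tnfrsf4, and 4977 and 382 for Tnfrsf9. Of 12 effector transcription factors, 7 were higher and 0 lower, among them Maf (1.003 ± 0.22, adjusted p = 0.00339). Ifng was higher (1.17 ± 0.24, adjusted p = 0.00255).

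Among granule genes, 4 of 12 were higher and 0 lower. Gzmb, the principal apoptosis-inducing granzyme, measured 1058 and 882 CPM in KO and 878 and 1030.3 CPM in control colon libraries, against 408 and 592 CPM in KO and 469 and 281 CPM in control spleen libraries (1.24 ± 0.20, adjusted p = 0.000373). All colon values lay above all spleen values. Gzma varied most among libraries and was not called (-0.56, adjusted p = 0.735). Esm1 measured 352 and 152 CPM in KO and 372 and 189 CPM in control colon libraries, against 128 and 56.1 CPM in KO and 85.8 and 71.6 CPM in control spleen libraries (1.85 ± 0.35, adjusted p = 0.00413). The lowest colon value stood above the highest in spleen. Among the other CD3-positive cells, UMIs in colon and spleen were 27839 and 7485 for Gzmb and 1957 and 697 for Esm1. The direction of these 2 genes is thus not particular to the Eomes Gzmk class. Cd27 (0.40), Pdcd1 (0.58), Tox (-0.32) and Cxcr6 (0.84) were not called (adjusted p = 0.265, 0.17, 0.519 and 0.117).

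Proliferation genes ran the other way, with 0 of 20 higher and 9 lower and a median of -2.10. Rrm2, the ribonucleotide reductase subunit of S phase, measured 25.3 and 53.2 CPM in KO and 30.3 and 68.2 CPM in control colon libraries, against 140 and 417 CPM in KO and 238 and 102 CPM in control spleen libraries (-2.54 ± 0.54, adjusted p = 0.0119). Its call ended without the spleen control replicate 1, the KO colon replicate 1 or the control colon replicate 1. Mcm5 (-2.07 ± 0.38, adjusted p = 0.00116), the cytokinesis gene Racgap1 (-1.86 ± 0.32, adjusted p = 0.000602) and the mitotic phosphatase Cdc25b (-1.94 ± 0.31, adjusted p = 0.000296) were lower too. Id3, an inhibitor of E proteins found in memory-type T cells, had 2 UMIs in colon and 101 in spleen, where it measured 8.25 and 46.6 CPM in KO and 45.8 and 107 CPM in control libraries. Among the other CD3-positive cells, UMIs in colon and spleen were 2104 and 7305 for Rrm2, 1333 and 2377 for Mcm5, and 1352 and 4015 for Racgap1. For Cdc25b they were 1084 and 3170, and for Id3 367 and 2355, so the direction of these genes is not particular to the Eomes Gzmk class.

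Within batch 1 and batch 2 taken alone, the log2 difference was 4.42 and 3.95 for Ctla4, 1.23 and 1.23 for Gzmb and 1.88 and 1.48 for Esm1; these batches are parts of the same 8 libraries on which the genes were called, and give no separate test. The number called lower fell to 82 without the KO colon replicate 1, to 147 without the KO spleen replicate 2 and to 177 without the control colon replicate 1, and the number higher fell to 287 without the first of these.

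**Figure D4:**
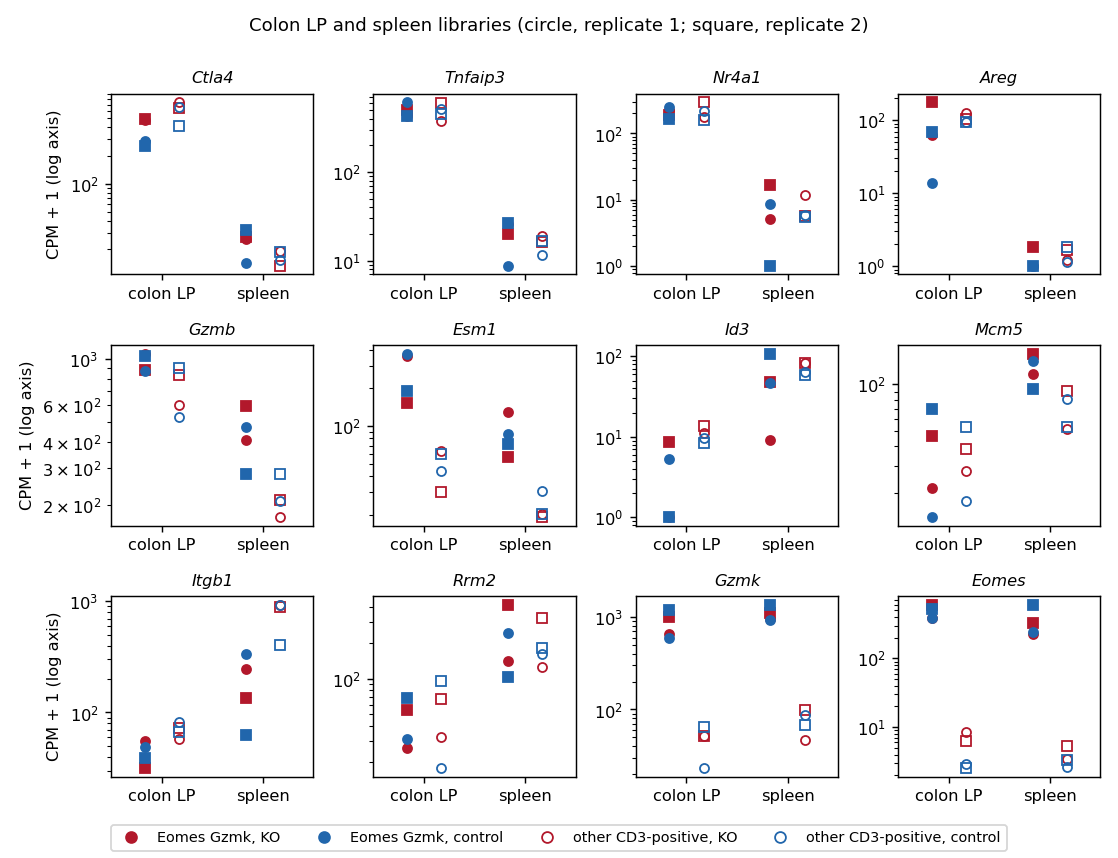
CPM plus 1 (y axis, logarithmic) of 12 genes in the colon lamina propria and spleen libraries (x axis); filled points are Eomes Gzmk cells, open points the other CD3-positive cells, red KO and blue control, circles replicate 1 and squares replicate 2. Filled points of Ctla4, Tnfaip3, Nr4a1, Gzmb and Esm1 are higher in every colon library than in every spleen library, and those of Rrm2 and Mcm5 lower.

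Whether the tissues differed to another extent in Eomes Gzmk cells than in the other CD3-positive cells was tested as an interaction. For 55 of 10389 genes (0.529%) the ratio of Eomes Gzmk cells to other CD3-positive cells was higher in colon than in spleen, and for 43 (0.414%) it was lower, 0.943% in all. For 34 and 25 of these called genes the per-library ratios of the tissues did not overlap, which gives no separate support. The balance depends on scaling: 22 were higher and 67 lower with TMM over all genes and 28 and 62 with DESeq2 size factors, where 24.7% and 31.1% of calls were upward in place of 56.1%, and the median moved by -0.17 and -0.13.

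Among genes averaging 20 CPM or more whose ratios did not overlap between tissues, Cxcr5 had the largest positive difference (2.83 ± 0.40, adjusted p = 1.86e-09). In Eomes Gzmk cells it measured 42.8 and 53.2 CPM in KO and 51.9 and 37.9 CPM in control colon libraries, and 24.7 and 40.6 CPM in KO and 21.0 and 61.4 CPM in control spleen libraries. In the other cells it was 0.713 to 4.25 CPM in colon and 10.44 to 17.9 CPM in spleen, so that the tissues overlapped in Eomes Gzmk cells and not in the others. The semaphorin gene Sema4a (2.12 ± 0.27, adjusted p = 7.84e-12) and the monocyte and effector surface gene Ly6c2 (1.80 ± 0.20, adjusted p = 2.05e-15) followed. Ly6c2 measured 25.9 to 149 CPM in colon Eomes Gzmk cells, against 161 to 589 CPM in spleen. In the other cells it measured 25.1 to 61.6 CPM in colon and 289 to 780 CPM in spleen, and the ratio of the classes was above 1 in colon on average and below 1 in spleen. The erythroid genes Hba-a1, Hba-a2 and Hbb-bs, from the list whose highest level was in the other cells of the control colon replicate 1, were called lower as well, and their part in other results was not tested. Integrin Itgb1 also differed (1.72 ± 0.24, adjusted p = 9.68e-10), as did Cd27 (0.98 ± 0.17, adjusted p = 9.48e-06). The call of Itgb1 ended without the KO colon replicate 1.

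Rgs1, a regulator of G protein signals in tissue-retained lymphocytes, had the largest negative difference among such genes (-2.16 ± 0.19, adjusted p = 1.34e-10). It measured 1209 and 1087 CPM in KO and 1141 and 765 CPM in control Eomes Gzmk cells of colon, against 367 and 192 CPM in KO and 134 and 302 CPM in control cells of spleen. The other cells measured 1149.6 to 1862 CPM in colon and 55.8 to 84.3 CPM in spleen, a wider gap. Ctla4 behaved likewise (-1.41 ± 0.26, adjusted p = 4.02e-05), at 417 to 736 CPM in the other cells of colon and 12.1 to 18.1 CPM in those of spleen. Ikzf3 (-1.29 ± 0.21, adjusted p = 4.19e-07) and Ifng (-1.01 ± 0.22, adjusted p = 0.00106) were also lower by this measure. The call of Ctla4 ended without the KO spleen replicate 2, and that of Ifng without either KO spleen library and with DESeq2. In cells with Cd4 and no Cd8, Rgs1, Ctla4 and Cd27 lost their calls. With cells thinned to 1500 UMIs, 0 genes were called higher and 5 lower. Lag3 (-1.16, adjusted p = 0.0608; with the replicate block -1.06, adjusted p = 0.0037) and Esm1 (0.67, adjusted p = 0.138) did not pass. Counts fell by more than 1.5 times without single libraries: to 16 and 15 without the KO spleen replicate 2, to 21 higher without the KO colon replicate 1, to 33 higher without the KO spleen replicate 1, and to 34 and 27 without the control colon replicate 1.

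Between genotypes, 3 genes of the Eomes Gzmk cells passed the test. Cdkn1a, which encodes the cell-cycle inhibitor p21, and Tnfrsf9, which encodes the costimulatory receptor 4-1BB, were higher in KO, and Zfp36l2, which encodes an RNA-binding protein that shortens transcript life, was lower. These were 2 higher (0.06%) and 1 lower (0.03%) of 3334 genes tested over 12 libraries with tissue as a term, and 174 genes had an unadjusted p under 0.05. Of the gene lists, 1 member, Tnfrsf9, was called.

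Cdkn1a measured 247 and 304 CPM in KO and 60.5 and 98.5 CPM in control Eomes Gzmk cells of colon lamina propria, 61.9 and 85.4 CPM in KO and 21.0 and 25.6 CPM in control cells of spleen, 153 CPM in KO and 51.0 CPM in control cells of small intestine, and 128 CPM in KO and 0 CPM in control cells of colon epithelium. KO was higher in 6 of 6 pairs (1.80 ± 0.25, adjusted p = 0.000983 by edgeR). Cdkn1a kept its call in each of the 21 alternatives that gave a value. Thinning to 1500 UMIs gave it none, as 744 genes were tested there and 0 called, so its call was not checked at equal depth. In the test below of whether the genotype difference differed between the classes, thinning turned its value to -0.43. Tnfrsf9 measured 173 and 144 CPM in KO and 82.1 and 37.9 CPM in control cells of colon lamina propria, and 57.7 and 95.8 CPM in KO and 15.3 and 10.23 CPM in control cells of spleen. KO was higher in 5 of 6 pairs (1.78 ± 0.32, adjusted p = 0.0197), with colon epithelium reversed. Its call ended in 7 of 21 alternatives, among them the fits without the KO spleen replicate 2, either spleen control, the KO colon replicate 1 or the control colon replicate 2.

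Zfp36l2 measured 339 and 236 CPM in KO and 536 and 409 CPM in control cells of colon lamina propria, and 70.1 and 70.8 CPM in KO and 162 and 220 CPM in control cells of spleen. KO was lower in 6 of 6 pairs (-1.04 ± 0.19, adjusted p = 0.0197). The call ended without the KO spleen replicate 1 or 2, the KO colon replicate 2, the control colon replicate 1 or either small intestine library. Esm1 (-0.05), Cd27 (-0.17), Gzmb (0.20) and Nkg7 (0.13) were not called, nor was Ifng (0.98, adjusted p = 0.135), which was higher in KO in 6 of 6 pairs. Il7r (-1.49) and Gzma (-1.86) had an adjusted p of 0.923, but without the KO colon lamina propria replicate 1 Il7r passed the test (-2.23, adjusted p = 0.000617).

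Because replicate numbers paired the libraries, the fit was also made with the number as a block, which called 8 genes higher and 2 lower. The added genes were named here after their values were seen, with adjusted p by edgeR. Higher were Lag3 (1.04, adjusted p = 0.00626), the costimulatory receptor OX40 gene Tnfrsf4 (1.03, adjusted p = 0.00322) and Fos (1.32, adjusted p = 0.0123). Il22 (3.96, adjusted p = 2.3e-05), Ifitm1 (3.50, adjusted p = 1.34e-07) and Gcg (4.97, adjusted p = 0.0245) were higher too. Most Il22 UMIs came from the KO colon lamina propria replicate 1. Ifitm1 had 465 UMIs in KO and 63 in control libraries, with 466 in spleen. Whether RNA of another lineage contributed to Gcg was not tested. Tsc22d3 (-0.85, adjusted p = 0.0226), a glucocorticoid-induced gene, was lower. In this fit Cdkn1a had an adjusted p of 2.76e-05, Tnfrsf9 of 0.00292 and Zfp36l2 of 0.00033.

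**Figure D5:**
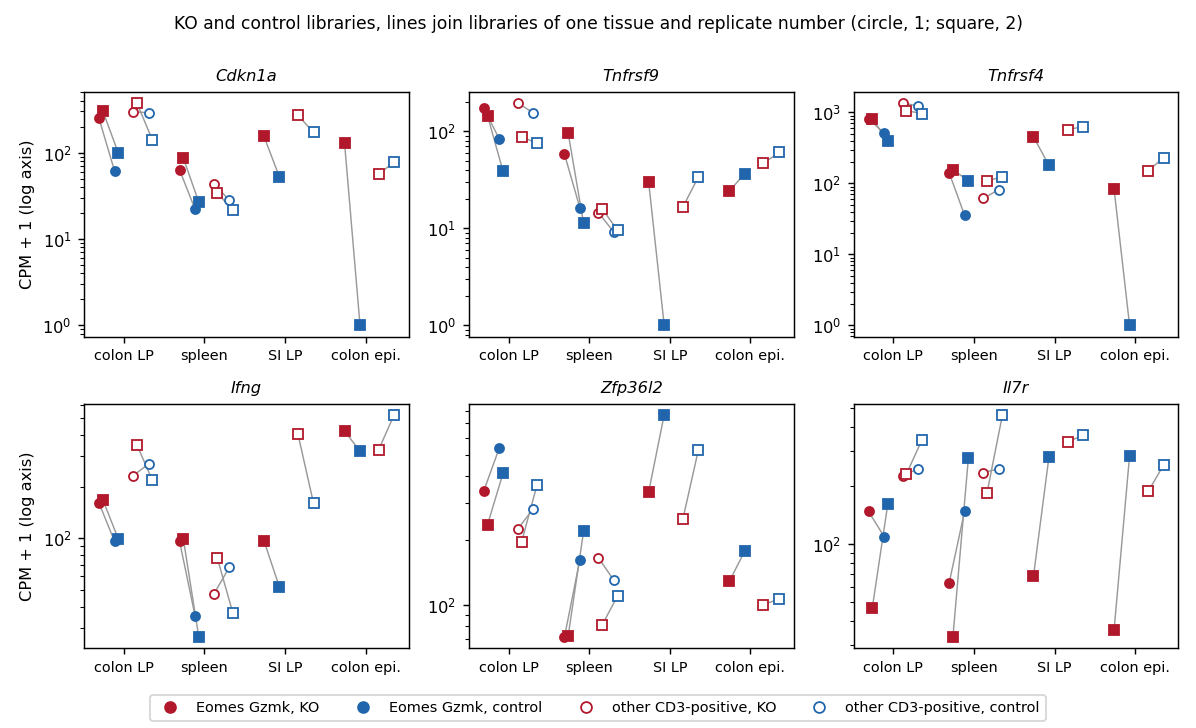
CPM plus 1 (y axis, logarithmic) of 6 genes by tissue (x axis), with KO left of control and lines joining libraries of one tissue and replicate number; filled points are Eomes Gzmk cells, open points the other CD3-positive cells, red KO and blue control. Filled points of Cdkn1a and Ifng are higher in KO in 6 of 6 pairs, and those of Zfp36l2 lower in 6 of 6.

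A test of whether the genotype difference itself differed between the classes called 5 genes higher (0.0512%) and 4 lower (0.0409%) of 9769, 0.0921% in all. Tnfrsf4 differed (1.02 ± 0.16, adjusted p = 4.39e-07). In Eomes Gzmk cells it measured 815 and 806 CPM in KO and 510 and 394 CPM in control libraries of colon lamina propria. In the other cells it measured 1363 and 1059 CPM in KO and 1225 and 961 CPM in control libraries there. Cdkn1a (1.33 ± 0.24, adjusted p = 0.000198), Tnfrsf9 (1.24 ± 0.28, adjusted p = 0.0137) and Ifng (0.91 ± 0.21, adjusted p = 0.0208) were likewise higher by this measure. With the replicate block the adjusted p of Tnfrsf9 was 0.0629 and that of Ifng 0.0581. Il7r (-0.95 ± 0.21, adjusted p = 0.0208), the ribosomal protein gene Rps27 and the small GTPase gene Rrad were lower. Leaving out 1 library in turn ended the call of Il7r in 9 of 12 fits (each spleen, small intestine and colon epithelium library and the KO colon replicate 2). It ended that of Ifng in 8 (each spleen and colon epithelium library, the KO colon replicate 1 and the control colon replicate 1). Rrad lost its call in 5 (the KO spleen replicate 2, the KO colon replicate 2, the control colon replicate 1 and both small intestine libraries), Rps27 in 3 (both KO spleen libraries and the control spleen replicate 2) and Tnfrsf9 in 3 (the KO spleen replicate 2 and both control spleen libraries). Cdkn1a lost it without the control colon replicate 1. Il22, an epithelial-repair cytokine, was called (3.35 ± 0.52, adjusted p = 4.39e-07), but most of its 364 UMIs in KO Eomes Gzmk cells came from 1 library, the KO colon lamina propria replicate 1 at 344 CPM, and without that library the difference was 1.26 with an adjusted p of 0.99. DESeq2 called 0 genes in this comparison, with 199 at an unadjusted p under 0.05.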

How the data were processed

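The deposited values were counts of UMIs per gene and cell: per the labels, the authors made 10x Chromium 3′ version 2 libraries, and Cell Ranger 2.0.2 with mm10 appears in the submitters' processing notes. The matrix held 18601 genes and 32763 cells, and 2 columns of the cell table were not used. Filters on cells, doublet treatment and strand setting are not stated, and no doublet caller was run; 28 Eomes Gzmk cells were among the top 1% of UMIs in their library, and results were repeated without these and other doubtful cells (829 kept). The members, gene lists and tests were chosen with earlier results of these data known.

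UMIs were summed per library and class, giving 28113 to 1158995 UMIs for the Eomes Gzmk cells of a library, from 10 to 226 cells. In edgeR 4.0.16 (R 4.3.3) genes passed filterByExpr and were tested by the quasi-likelihood test with robust dispersions and Benjamini-Hochberg adjustment at 0.05. TMM factors were taken over genes averaging 200 CPM or more. The reason was a bias seen in simulated data with factors over all genes, whose values are not given here. This choice departs from the planned scaling, which is given as an alternative. The simulated results below used the 200 CPM scaling only. SE is the absolute log2 fold change over the square root of F. Library was a block in the comparison of classes, genotype a term between tissues and tissue a term between genotypes. Gate genes, and between classes also Esm1, Il10 and Cd27, were not tested. Shares carry exact binomial 95% intervals, and intervals and zero limits (3 counts) cover counting error only. On simulated data the comparison of classes recovered 94 of 100 genes changed 4-fold, with 11.6% false calls, above the 5% aimed at. Tissues within Eomes Gzmk cells gave 83 of 100 and 5.93%, and genotypes 90 of 100 and 5.56%. The tissue interaction gave 59 of 100 and 4.55%, and the genotype interaction 68 of 100 and 4%. Of genes changed 2-fold, these fits in the same order recovered 74, 44, 63, 25 and 28 of 100, so the interactions miss many differences.

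Samples with the same replicate number deviated together (correlations of 0.34 to 0.64 over 4951 genes) and the number equals the batch for all 32763 cells, so it was read as pairing them.

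Genes were named by rule: a list of gate, identity, effector and checkpoint genes in every case, in each comparison the 12 largest changes each way among called genes with a mean of 20 CPM and all libraries apart or in one direction, and up to 4 members per list by p. Predicted genes, receptor segments and sex-linked genes were counted but not named. DESeq2 1.42.0, other scalings, filters, gates, thinning, matching and left-out libraries were alternatives. Results for some genes are not reported here, although such genes remain in the counts of lists.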

Additional observations from a re-analysis of the deposited data

Results flagged for a closer look

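The tests of a difference between tissues or between genotypes singled out the following genes; each value is a log2 difference of differences from edgeR's quasi-likelihood test, and no cause was tested. For colon lamina propria against spleen, the ratio of Eomes Gzmk cells to other CD3-positive cells was higher in colon for Cxcr5 (2.83), Sema4a (2.12), Ly6c2 (1.80), Kremen2 (1.73), Itgb1 (1.72), Fam78a (1.65), Crk (1.48), Rgs10 (1.40), Jun (1.13), Satb1 (1.07), Faah (1.03), Ccr2 (1.002), Cd27 (0.98) and Ccl5 (0.46). It was lower in colon for Rgs1 (-2.16), Dapk2 (-2.04), Smim3 (-1.48), Ehd1 (-1.47), Ctla4 (-1.41), Ikzf3 (-1.29), Gadd45b (-1.29), Dusp10 (-1.29), Litaf (-1.28), Got1 (-1.15), Ube2e3 (-1.13), Bcl2a1b (-1.05) and Ifng (-1.01). With the replicate block Faah (adjusted p = 0.12) and Crk (adjusted p = 0.0568) did not pass. With cells thinned to 1500 UMIs, 0 genes were called higher and 5 lower in this test.

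For KO against control, the ratio of the classes was higher in KO for Il22 (3.35), Cdkn1a (1.33), Tnfrsf9 (1.24), Tnfrsf4 (1.02) and Ifng (0.91), and lower in KO for Rrad (-1.16), Il7r (-0.95) and Rps27 (-0.38). The Il22 value rests on the KO colon lamina propria replicate 1. Of 12 fits that each left out 1 library, the call ended in 9 for Il7r, 8 for Ifng, 5 for Rrad, 3 for Tnfrsf9, 3 for Rps27, 1 for Cdkn1a, 1 for Il22 and 0 for Tnfrsf4. With the replicate block Tnfrsf9 (adjusted p = 0.0629) and Ifng (adjusted p = 0.0581) did not pass, and DESeq2 called 0 genes.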

How the results depend on the processing

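Counts are genes higher, then lower. Eomes Gzmk cells against other CD3-positive cells gave 320 and 971 with TMM over all genes, 316 and 308 with DESeq2, 159 and 167 after thinning to 1500 UMIs, 333 and 273 against cells matched by UMIs, 298 and 285 without batch 1, and 318 lower in cells with Cd4 and no Cd8. Leaving out 1 library gave 448 to 535 and 425 to 553. Colon against spleen gave 199 lower with DESeq2, 548 lower without a filter, 66 and 20 after thinning, 268 and 105 in cells with Cd4 and no Cd8, and 287 to 521 and 82 to 411 without 1 library. KO against control gave 1 higher with DESeq2 and in cells with Cd4 and no Cd8, 10 and 4 without a filter, 8 and 2 with the replicate block, 0 and 0 after thinning (28 at an unadjusted p under 0.05 of 744 tested by edgeR), and 1 to 3 and 0 to 2 without 1 library. The tissue interaction gave 28 higher with DESeq2 size factors, 22 and 67 with TMM over all genes, 8 and 23 with DESeq2, 0 and 5 after thinning, 28 lower in cells with Cd4 and no Cd8, and 16 to 78 and 15 to 56 without 1 library. The genotype interaction gave 0 and 0 with DESeq2, 2 and 1 after thinning, 1 lower in cells with Cd4 and no Cd8, 7 lower without other-lineage, high mitochondrial or top UMI cells, and 4 to 9 and 0 to 11 without 1 library; the extremes were 9 higher without the control colon lamina propria replicate 2, and 0 and 11 lower without the KO spleen replicate 2 and the control spleen replicate 1. The log2 share difference ran from 0.56 to 1.21 for KO and from -1.19 to -0.17 for colon without 1 library.

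Some values turned in sign. Between classes, thinning gave Mcm3 -0.39, Mcm5 -0.92, Tnfrsf18 0.032 and Tcf7 0.040, the batch 2 libraries alone gave Gzmb -0.0569, and Ccl3 was -0.17 with DESeq2 and with tissues pooled. Between tissues, Tox ran from -0.52 to 0.20 without 1 library (0.20 without the KO colon replicate 1), and Gzma was 0.38 after thinning and ran from -1.04 to 0.27 (0.27 without the KO spleen replicate 1). Between genotypes, thinning gave Gzmb -0.36 and Esm1 0.34. Esm1 was 0.010 with 5 or more CD3 UMIs, 0.0085 in cells with Cd4 and no Cd8, 0.00065 without colon epithelium, and -0.28 to 0.20 without single libraries, above zero in 4 such fits. After thinning the interactions gave Ccl5 -0.077 and Cdkn1a -0.43. The cause was not tested in any of these. The replicate block moved no other count of calls by over 1.5 times, and beside the genes named with it above it ended the calls of Tnfrsf18 and Tcf7 between classes (adjusted p = 0.261 and 0.0769). Thinning kept 323 Eomes Gzmk cells and left out libraries with under 10 of them, and some libraries rest on 10 to 49 cells, which limits what low genes can show.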
